A study of Arabidopsis thaliana with 12 samples.

Results

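The 4 genes described here belong to salicylic acid and pipecolic acid signalling in Arabidopsis thaliana: SAG101 (AT5G14930), AT5G52810 (known as SARD4), BSMT1 (AT3G11480) and GRX480 (AT1G28480). They were chosen by locus from the array platform's probe-to-gene table, and each had 1 probe set with that single gene, which gives 4 of the 22746 probe sets tested. All 4 were measured on all 12 arrays, and no filter on low values was applied. The arrays were hybridised with RNA from mature leaves of 4-week-old plants in 4 groups of 3 biological replicates. Wild type (WT) was the Col-0 accession, and the line here called CPR5-C was Col-0 with the construct Dex:YFP-CPR5-C, which after dexamethasone makes a fusion of YFP, a fluorescent protein, with the C-terminal stretch of CPR5. CPR5 sits in the nuclear envelope, and mutants without it are known for high salicylic acid and immune gene expression. According to the study's design the C-terminal part acts as a dominant negative on the native protein. Leaves of both genotypes were sprayed with water or with 50 µM dexamethasone, a synthetic glucocorticoid, and taken after 24 hours. The labels name 1 transgenic line, without the number of independent lines, of plants per sample, or the cell types in which the construct is active. CPR5 had no named probe set and was not analysed here, so the induction itself was not checked.

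Salicylic acid is a defence hormone that in leaves is made in larger part from isochorismate, and it is methylated, glycosylated or hydroxylated to other forms. Pipecolic acid is made from lysine by the aminotransferase ALD1 and the reductase SARD4, and its N-hydroxylated form, made by FMO1, acts with salicylic acid in systemic acquired resistance. Upstream of both, the lipase-like proteins EDS1, PAD4 and SAG101 relay signals of intracellular immune receptors. SAG101 pairs with EDS1 and helper receptors of the NRG1 type, and was first known as a gene of leaf senescence. BSMT1 methylates salicylic acid to the volatile methyl salicylate. GRX480, also called ROXY19, is a glutaredoxin that binds TGA transcription factors, is induced by salicylic acid and represses jasmonate-responsive genes.

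Values are log2 signals minus each probe set's median over the 12 arrays, as deposited. A value of 0 is thus the middle array for that gene, values of different genes cannot be set against each other as levels, and presence or absence of a transcript or a leaf marker cannot be read from them. Changes are differences of group means on the log2 scale with the standard error (SE) of a limma fit across all probe sets, and a probe set was called at a Benjamini-Hochberg adjusted p under 0.05. On the CPR5-C dexamethasone arrays the SD over all probe sets was 0.68 to 0.69, against 0.13 to 0.23 on the other 9 arrays.

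The pipecolic acid enzyme gene AT5G52810 was higher in every CPR5-C leaf sample given dexamethasone. Its centred log2 signals were 0.83, 0.92 and 0.92 in CPR5-C dexamethasone replicates 1 to 3, and -0.071, -0.17 and 0.0047 in the CPR5-C water replicates. In WT leaves they were -0.26, -0.010 and -0.0047 with water and -0.24, 0.064 and 0.26 with dexamethasone. The 3 CPR5-C dexamethasone arrays lay close together and above all 9 others, which overlapped one another. The group mean was 0.89 ± 0.054 (SD, n = 3) after induction and -0.079 ± 0.087 (SD, n = 3) in CPR5-C water leaves. AT5G52810 rose by 0.97 on the log2 scale (SE 0.11, 95% confidence interval 0.73 to 1.2), a 1.95-fold change (limma, adjusted p = 2.9e-06).

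SAG101, the EDS1 partner, was likewise highest in the induced leaves. The CPR5-C dexamethasone arrays gave 0.53, 0.74 and 0.81, and the CPR5-C water arrays -0.20, -0.044 and 0.034. With water the WT arrays gave 0.019, -0.019 and -0.074, and with dexamethasone -0.11, 0.21 and -0.22. Again the induced samples did not overlap any other sample. The share of all probe sets with such a separation, seen here and for AT5G52810, was not counted. The mean was 0.70 ± 0.15 (SD, n = 3) after induction and -0.071 ± 0.12 (SD, n = 3) in the uninduced line. SAG101 rose by 0.77 (SE 0.11, interval 0.54 to 0.99), or 1.70-fold (limma, adjusted p = 2.3e-05). The RefSeq table lists 3 proteins for this locus, and which of their transcripts the probe set reads was not determined.

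BSMT1, which consumes salicylic acid, had no change past the threshold. Its signals were 0.22, 0.0016 and 0.46 in CPR5-C dexamethasone leaves and -0.032, 0.16 and -0.13 in CPR5-C water leaves. The WT arrays gave -0.00098, 0.00098 and -0.10 with water and -0.10, -0.091 and 0.27 with dexamethasone. The groups overlapped: replicate 2 of the induced group lay below 1 CPR5-C water and 1 WT dexamethasone array. BSMT1 differed by 0.23 (SE 0.12, interval -0.035 to 0.49) between dexamethasone and water in CPR5-C plants (limma, adjusted p = 0.151), so a rise of up to 0.49 lies within its error. The value rested in part on single arrays of the induced group: it was 0.34 and passed without replicate 2 (limma, adjusted p = 0.038), and 0.11 without replicate 3 (adjusted p = 0.524).

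GRX480, the salicylic-acid-induced glutaredoxin, had its lowest group mean after induction, with no change past the threshold. Its signals were -0.22, -0.14 and -0.22 in CPR5-C dexamethasone leaves and 0.44, -0.13 and -0.20 in CPR5-C water leaves. In WT leaves they were 0.14, 0.18 and 0.17 with water and -0.20, 0.13 and 0.26 with dexamethasone. The induced and the WT water groups were each tight, within 0.081 and 0.044, whereas the other two groups spread over 0.64 and 0.46 and reached down into the induced range. The difference in CPR5-C plants was -0.24 (SE 0.14, interval -0.54 to 0.072; limma, adjusted p = 0.207). Without CPR5-C water replicate 1, the highest array, it was -0.034. The SD within groups was 0.21 for GRX480, and only 3.35% of all probe sets had a larger one. For BSMT1 it was 0.18 (8.85% larger), for AT5G52810 0.15 and for SAG101 0.15, against a median of 0.11 over all probe sets.

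**Figure D1:**
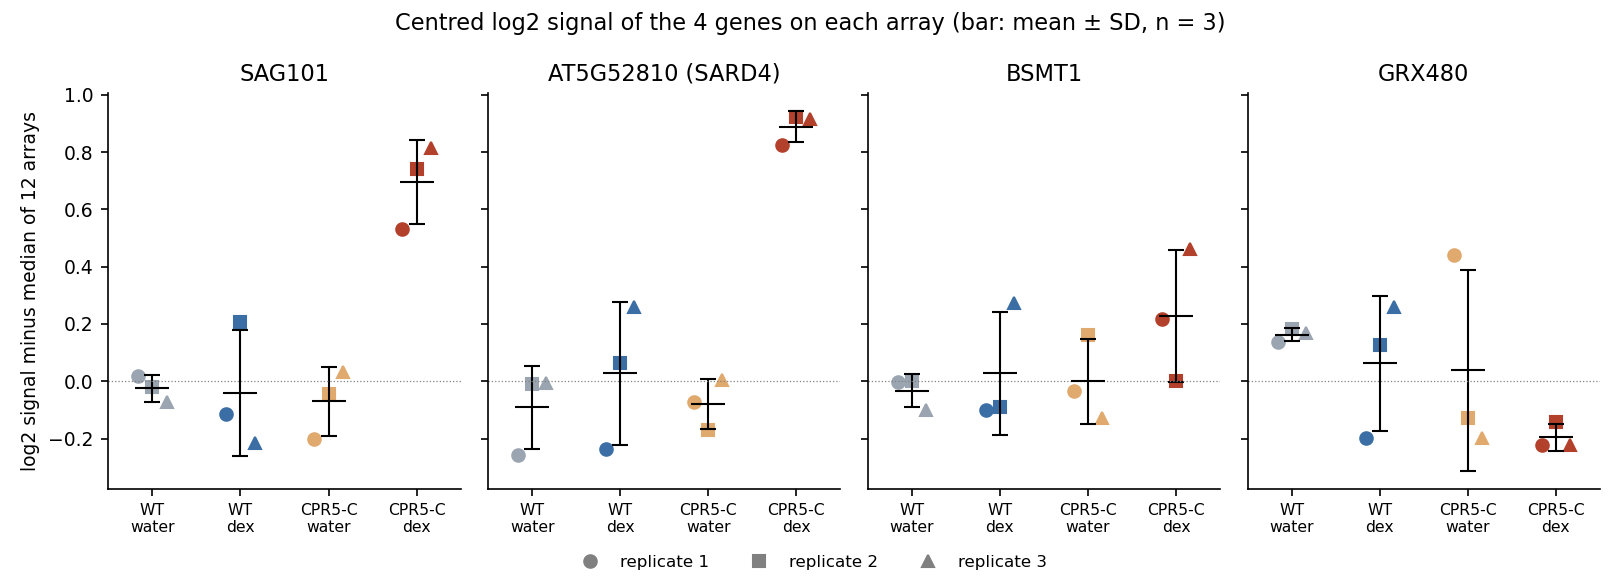
Centred log2 signal (y axis) of SAG101, AT5G52810, BSMT1 and GRX480 on each of the 12 arrays by group (x axis), with a marker per replicate and the mean ± SD of 3 arrays in black. For SAG101 and AT5G52810 the 3 CPR5-C dexamethasone arrays sit above all others, while for BSMT1 and GRX480 they overlap other groups.

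Among the members 2 of 4 were called between dexamethasone and water in CPR5-C plants, both higher, with a median change of 0.50 over the 4. The background in this comparison was 47.9% of 22746 probe sets called in either direction, with a median change of -0.017, so the members' share is near that of all probe sets. In size, 5.68% of all probe sets rose by at least as much as AT5G52810 and 7.81% by at least as much as SAG101. For BSMT1 this was 23.0%, and 23.6% of probe sets had a change as low as that of GRX480 or lower. Larger rises than those of AT5G52810 and SAG101 were thus found in several percent of probe sets.

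**Figure D2:**
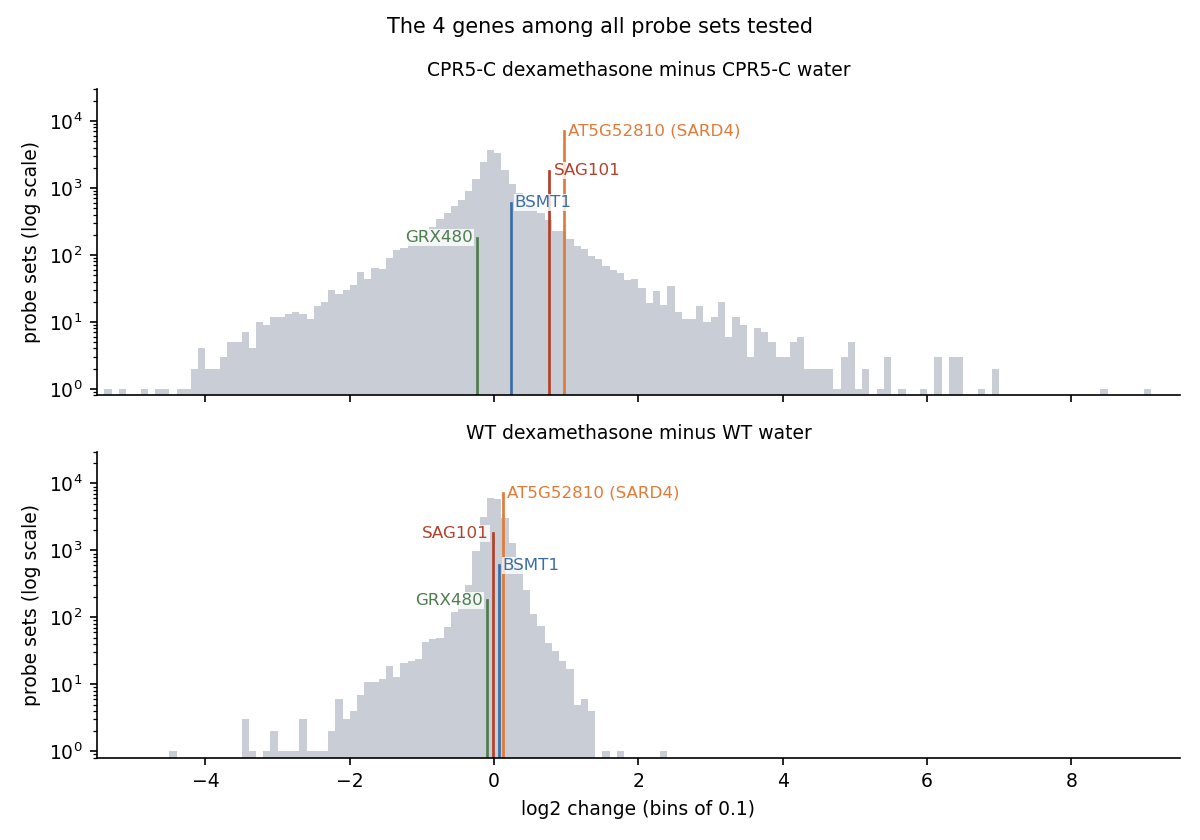
Number of probe sets (y axis, log scale) by log2 change in bins of 0.1 (x axis) for dexamethasone against water in CPR5-C plants (top) and WT plants (bottom), with vertical lines at the changes of the 4 genes. In CPR5-C plants AT5G52810 (0.97) and SAG101 (0.77) lie on the upper flank, and in WT plants all 4 lie between -0.10 and 0.12.

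Dexamethasone alone did not move any of the 4 genes past the threshold in WT leaves (0 of 4, against 9.08% of all probe sets called; 0 of 4 also at an unadjusted p under 0.05). The share of all probe sets at the unadjusted threshold was not counted, here or in the comparisons below. The change was 0.12 for AT5G52810 (interval -0.12 to 0.35; limma, adjusted p = 0.60) and -0.016 for SAG101 (interval -0.24 to 0.21; adjusted p = 0.956). For BSMT1 it was 0.061 (interval -0.20 to 0.32; adjusted p = 0.835) and for GRX480 -0.10 (interval -0.41 to 0.21; adjusted p = 0.756). The upper bounds for AT5G52810 and SAG101 lie below the lower bounds of the rises in CPR5-C plants.

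The uninduced line was then set against WT, both with water, and none of the 4 genes was called (0 of 4, against 7.08% of all probe sets; 0 of 4 at an unadjusted p under 0.05). AT5G52810 differed by 0.012 (interval -0.22 to 0.25), SAG101 by -0.046 (interval -0.27 to 0.18), BSMT1 by 0.034 (interval -0.23 to 0.30) and GRX480 by -0.12 (interval -0.43 to 0.18). The GRX480 value was -0.33 without CPR5-C water replicate 1, -0.041 without replicate 2 and -0.0057 without replicate 3. The limma adjusted p of the 4 genes ranged from 0.722 for GRX480 to 0.975 for AT5G52810.

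With dexamethasone on both genotypes, AT5G52810 was 1.81-fold higher in CPR5-C leaves (0.86, SE 0.11; limma, adjusted p = 1.0e-05) and SAG101 1.67-fold higher (0.74, SE 0.11; adjusted p = 3.4e-05). This made 2 of 4 members called, against 47.4% of all probe sets. BSMT1 (0.20, interval -0.062 to 0.46; adjusted p = 0.210) and GRX480 (-0.26, interval -0.57 to 0.048; adjusted p = 0.164) did not pass. Both were close enough that 1 array decided the call. BSMT1 passed without WT dexamethasone replicate 3 (0.32, limma, adjusted p = 0.038). GRX480 passed without WT dexamethasone replicate 1 (-0.39, adjusted p = 0.041) and, at the same -0.26 but a smaller estimated spread, without CPR5-C water replicate 1 (adjusted p = 0.043). This comparison shares the induced arrays with the first one, so its values are not a second measurement of the rise.

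The interaction asked whether the response to dexamethasone differed between the genotypes. The response of AT5G52810 was higher in CPR5-C than in WT plants by 0.85 (SE 0.15, interval 0.51 to 1.18; limma, adjusted p = 0.00045). For SAG101 the difference of responses was 0.78 (SE 0.15, interval 0.46 to 1.1; adjusted p = 0.00067). Again 2 of 4 members were called, against 38.5% of all probe sets. BSMT1 was at 0.17 (interval -0.20 to 0.54; adjusted p = 0.509) and GRX480 at -0.13 (interval -0.57 to 0.30; adjusted p = 0.662), so for these the responses were not shown to differ, nor to be alike. Whether the response of AT5G52810 or SAG101 differed from that of BSMT1 or GRX480 was not tested.

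Ordered by group mean, AT5G52810 ran from WT water (-0.091) over CPR5-C water (-0.079) and WT dexamethasone (0.028) to CPR5-C dexamethasone (0.89). The order for SAG101 was CPR5-C water (-0.071), WT dexamethasone (-0.041), WT water (-0.025) and CPR5-C dexamethasone (0.70). In both, the 3 lower groups overlapped and did not differ beyond their spread. BSMT1 ran from WT water (-0.033) over CPR5-C water (0.00030) and WT dexamethasone (0.027) to CPR5-C dexamethasone (0.23), with overlap between all neighbours. GRX480 ran the other way, from CPR5-C dexamethasone (-0.20) over CPR5-C water (0.039) and WT dexamethasone (0.062) to WT water (0.16), again with overlap between neighbours. Between the 2 middle groups of several of these orders, CPR5-C water and WT dexamethasone, none of the 4 genes was called (0 of 4, against 1.51% of all probe sets; 0 of 4 at an unadjusted p under 0.05), with changes from -0.11 for AT5G52810 to -0.023 for GRX480. At the ends of the GRX480 order, a pair picked after its values were seen, the highest CPR5-C dexamethasone array (-0.14) lay below the lowest WT water array (0.14). This pair of groups was not tested, and the share of all probe sets that separate between them was not counted.

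**Figure D3:**
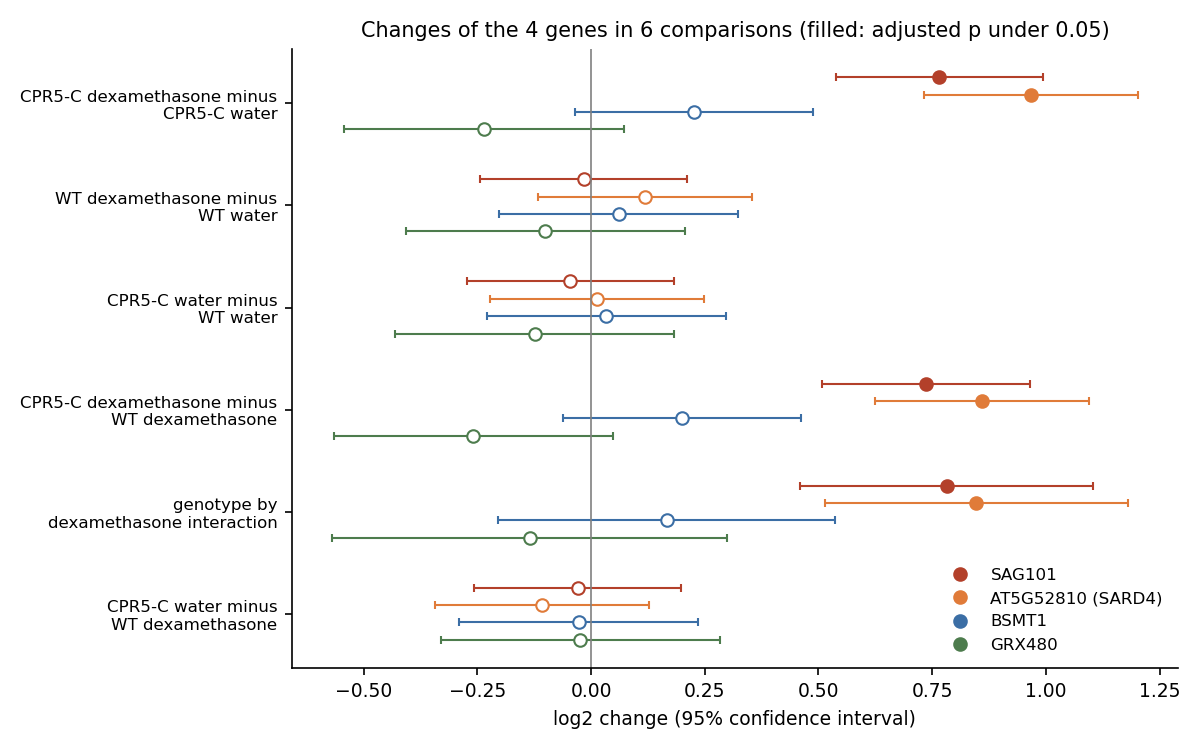
Log2 change (x axis) with its 95% confidence interval for each of the 4 genes in 6 comparisons (y axis), filled where limma's adjusted p is under 0.05. SAG101 and AT5G52810 are filled in the 3 comparisons that use the CPR5-C dexamethasone arrays, and BSMT1 and GRX480 cross 0 in all 6.

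The scaling of the arrays bears on the induced samples. The poly-A spike controls, bacterial transcripts that can be added to each RNA sample, were at -0.46, -0.59 and -0.090 on the CPR5-C dexamethasone arrays and at -0.047 to 0.077 on the CPR5-C water arrays. With each array scaled to them, the median change of all probe sets in CPR5-C plants moved from -0.017 to 0.39, and the calls were 87.8% rises, against 48.7% on the deposited scale. AT5G52810 was then at 1.38 and SAG101 at 1.18, both still called. BSMT1 was at 0.64 and called (limma, adjusted p = 0.00036), and GRX480 turned to 0.18 (adjusted p = 0.329). Relative to the shifted median the changes were 0.98, 0.78, 0.24 and -0.22 in the same order. The scaling adds the same amount to every change within a comparison, so these differences were fixed in advance and lend the rises no support. The labels do not say whether spikes were added in equal amounts.

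Of 56 genes in 6 lists of the pathway, 7 had a named probe set, the 4 members and UGT74F1, UGT76B1 and WRKY53. The others were not analysed here. No gene is named for 8730 of the 22746 probe sets, so these others may still be on the array. The lists cover salicylic acid synthesis (0 of 9 with a named probe set), its modification (2 of 7), pipecolic acid synthesis and modification (2 of 4), the EDS1 module with helper receptors (1 of 8), perception and transcription factors (0 of 16) and responsive genes (2 of 12). Of the 7 genes with a named probe set 2 rose and 1 fell in CPR5-C plants after dexamethasone, against 47.9% of all probe sets called, with a median of 0.23. In WT plants 0 rose and 1 fell, against 9.08%, with a median of 0.061. The interaction was called for 3, all positive, against 38.5% of all probe sets, with a median of 0.58. For WRKY53 the positive value was a smaller fall in CPR5-C than in WT plants. The shares for the induction and the interaction are near those of all probe sets. The medians rested on single arrays: without CPR5-C dexamethasone replicate 2 they were 0.10 for the induction and 0.28 for the interaction, without replicate 3 of that group 0.11 for the induction, and in WT 0.00060 and 0.0046 without WT dexamethasone replicates 2 and 3. No synthesis enzyme of salicylic acid itself, and neither ALD1 nor FMO1, was among the 7.

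UGT74F1, which puts glucose on salicylic acid, stayed within a narrow range. Its signals ran from -0.11 to 0.21 over the 12 arrays, with a difference of 0.053 in CPR5-C plants (interval -0.085 to 0.19; limma, adjusted p = 0.558) and 0.14 in WT plants (interval -0.0012 to 0.27; adjusted p = 0.241). The 3 WT dexamethasone arrays (0.11, 0.064 and 0.21) lay above the 3 WT water arrays (-0.013, -0.018 and 0.012). The share of all probe sets that separate in this way was not counted, so no response of UGT74F1 is read from it. With spike scaling UGT74F1 was at 0.46 in CPR5-C plants and called (limma, adjusted p = 0.0095), as was its interaction (0.50, adjusted p = 0.042; -0.084 and adjusted p = 0.528 as deposited).

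UGT76B1, a glycosyltransferase of salicylic acid and N-hydroxypipecolic acid, was decided by 1 array. The CPR5-C dexamethasone arrays gave 0.24, 1.72 and -0.099, and the CPR5-C water arrays -0.0033, -0.12 and 0.032. Replicate 2 stood far above every other array, and replicate 3 lay within the range of the water group. The difference of 0.65 (SE 0.31; limma, adjusted p = 0.104) was 0.10 without replicate 2 and 1.01, called, without replicate 3 (adjusted p = 0.0091). With spike scaling it was 1.06 (SE 0.21) and called (limma, adjusted p = 1.2e-05). The SE of the fit draws on the spread of all probe sets. The small p with spike scaling, for the interaction as well, is thus no measure of the agreement of the induced arrays. The interaction was 0.58 (adjusted p = 0.346) as deposited, 0.031 without replicate 2 and 1.17 with spike scaling (adjusted p = 0.00081). Neither AT5G52810 nor SAG101 had replicate 2 apart from its group in this way.

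WRKY53, a transcription factor of senescence that also responds to salicylic acid, moved most in WT leaves. It was at 1.02, 0.48 and 0.66 with water and at -1.30, -1.14 and -1.01 with dexamethasone in WT. In the CPR5-C line it was at 0.58, 0.12 and 0.15 with water and at -0.12, -0.30 and -0.22 with dexamethasone. It fell by 1.87 in WT (SE 0.14; limma, adjusted p = 7.1e-07) and by 0.50 in CPR5-C plants (SE 0.14; adjusted p = 0.0079), the latter no longer called with spike scaling (-0.086, adjusted p = 0.633). The responses differed by 1.37 (SE 0.20, limma, adjusted p = 5.2e-05), with the smaller fall in CPR5-C plants. After dexamethasone WRKY53 was higher in CPR5-C than in WT leaves by 0.94 (limma, adjusted p = 4.6e-05). CPR5-C water leaves were at 1.43 against WT dexamethasone (adjusted p = 0.00011) and at -0.44 against WT water, not called (adjusted p = 0.080). A change as low or lower was found in 0.154% of all probe sets for the fall in WT and in 13.4% for that in CPR5-C plants. GRX480, the other gene of the responsive list with a named probe set, was at -0.10 in WT. Of these, 1 gene fell with dexamethasone alone and 1 did not pass.

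**Figure D4:**
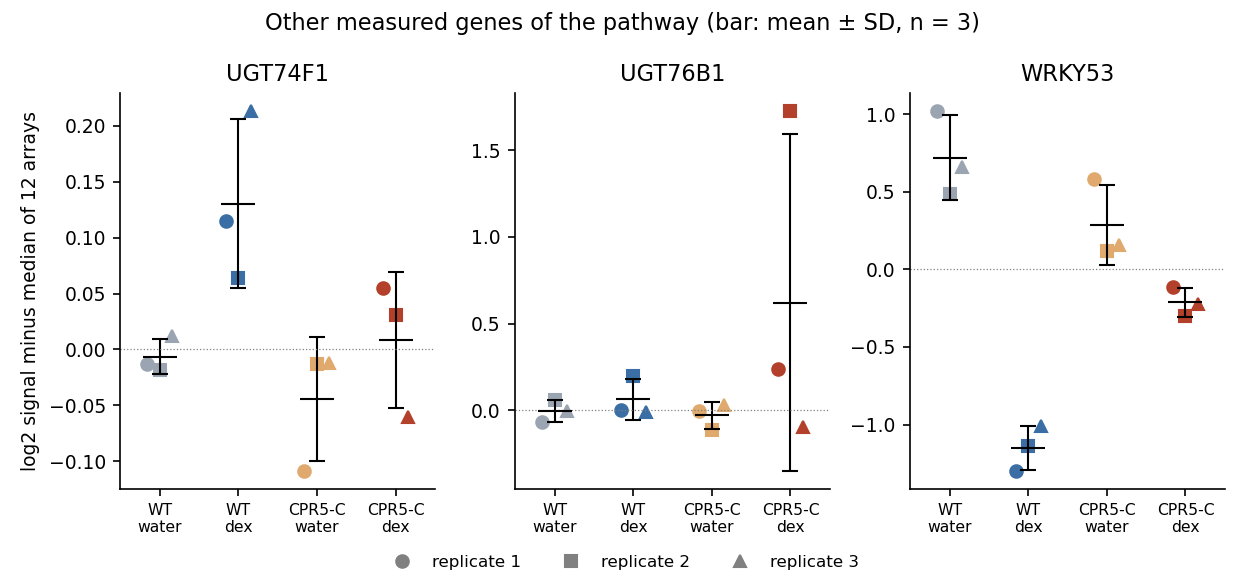
Centred log2 signal (y axis, a separate scale per gene) of UGT74F1, UGT76B1 and WRKY53 on each of the 12 arrays by group (x axis), with a marker per replicate and the mean ± SD of 3 arrays in black. The induced group of UGT76B1 spans -0.099 to 1.72, and WRKY53 is lowest in WT dexamethasone leaves.

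For each member the 3 probe sets with a single gene whose values were most like its own were found by Pearson's r over the 12 arrays, out of 13512 others. For AT5G52810 these were AT5G39250 (r = 0.985), AT3G17110 (0.980) and nad5, a mitochondrial gene of respiratory complex I (0.976). For SAG101 they were ATRER1C1 (0.972), AT4G05030 (0.969) and AT1G30640 (0.969). BSMT1 was nearest to AT2G33640 (0.901), AT4G40070 (0.827) and AT5G65820 (0.825). GRX480 was nearest to AT3G05980 (0.903), AT3G48640 (0.894) and AT1G56040 (0.879). These coefficients describe arrays in 4 groups. Without the 3 induced arrays r to AT5G52810 was 0.915, 0.803 and 0.827 for its 3 genes in the order given, and r to SAG101 0.854, 0.722 and 0.777. For BSMT1 it was 0.751, 0.682 and 0.613, and for GRX480 0.931, 0.855 and 0.895. The coefficients are the highest of many and carry no test.

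Whole leaves hold several cell types, and fewer cells of a type and less RNA per cell cannot be told apart in them. Of 10 cell type markers 3 had a named probe set, and all 3 were called for the induction in CPR5-C plants. The background was 47.9% of all probe sets called for the induction. It was 9.08% for dexamethasone in WT plants and 47.4% between the genotypes after dexamethasone. The guard cell genes GASA9 (-3.06, limma, adjusted p = 2.9e-11) and FAMA (-0.28, adjusted p = 0.011) fell, though FAMA turned to 0.13 with spike scaling (adjusted p = 0.427). The phloem transporter SWEET11 rose (0.51, adjusted p = 8.4e-06). A change as low or lower was found in 0.277% of all probe sets for GASA9 and in 21% for FAMA. For SWEET11, 12.7% of all probe sets rose by at least as much. In WT plants dexamethasone also lowered GASA9 (-0.61, adjusted p = 0.0033), while FAMA (0.068, adjusted p = 0.706) and SWEET11 (0.16, adjusted p = 0.161) did not pass. Between the genotypes after dexamethasone GASA9 (-2.83, adjusted p = 7.3e-11) and SWEET11 (0.33, adjusted p = 0.00058) differed, and FAMA did not pass (-0.15, adjusted p = 0.172). The part of these shifts in the rises of AT5G52810 and SAG101 was not tested.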

How the data were processed

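Leaf RNA was taken up in TRIzol and labelled with biotin during amplification, per the labels' protocols, and each of the 12 samples was run on an Affymetrix ATH1 array. The authors deposited log2 values from RMA, as named in the submitters' processing notes. Its version and the log base are not stated there, and log2 is what RMA gives. Tested on the file, each of the 22810 probe sets had a median of 0 over the 12 arrays, so the values are centred; the step that did this is not stated. No scanner files were used, so background correction could not be varied, and the number of arrays limits the precision.

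After 64 control probe sets were left out, 22746 were tested in R 4.3.3 by limma 3.58.1 (linear model with empirical Bayes variance, 12 arrays, a mean per group, 8 residual and 5.79 prior degrees of freedom), two-sided, with Benjamini-Hochberg adjustment within each of 6 comparisons. Of these 13513 had a single gene, 503 several and 8730 none in the platform table; loci came from the TAIR10.1 gene table, whose coordinates were not used. The code of the fit was run on simulated arrays with independent noise and changes in a single group. These held far fewer changed probe sets than were called in the data, so the run does not bear on the calls. Named genes were the members, all other genes of 6 lists with a named probe set and the 3 probe sets most like each member. The members and lists were chosen with earlier results of these data known. Alternatives for UGT74F1, UGT76B1, WRKY53 and the list medians were added after the data were seen. Figures were drawn with matplotlib 3.10.9.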

Additional observations from a re-analysis of the deposited data

Results flagged for a closer look

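The response to dexamethasone differed between CPR5-C and WT plants for SAG101 and AT5G52810 by the test of the difference itself. The response of SAG101 was higher in CPR5-C plants by 0.78 on the log2 scale, with 0.77 in CPR5-C and -0.016 in WT plants. For AT5G52810 the difference was 0.85, with 0.97 in CPR5-C and 0.12 in WT plants. Both held with each array left out in turn, from 0.69 to 0.91 for SAG101 and from 0.71 to 0.96 for AT5G52810. The background was 38.5% of all probe sets called for the interaction. A difference at least as high was found in 7.23% of all probe sets for SAG101 and in 6.51% for AT5G52810.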

How the results depend on the processing

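For SAG101 and AT5G52810 the 3 calls each (induction, genotypes after dexamethasone, interaction) held their direction and threshold under all alternatives run. Over all 6 comparisons of the 4 genes, 184 of 200 values under other settings and 265 of 288 with an array left out kept direction and side of the threshold. The labels do not pair replicate numbers, and only 2 of 18 same-numbered pairs of arrays had residuals correlated over 0.1 (3 of 12 arrays correlated best with their own number). Pairs with different numbers reached 0.42, for WT water replicate 2 with WT dexamethasone replicate 3. Structure that does not follow the numbers is not covered by a block on the replicate number, and it was not tested. With the replicate block SAG101 stayed at 0.77 (adjusted p = 3.6e-05) and 10671 probe sets were called for the induction; the block changed no call of the 4 genes. Poly-A spike scaling turned or raised most uncalled values. For the induction BSMT1 was 0.64 and GRX480 0.18; for WT dexamethasone AT5G52810 was -0.054 and BSMT1 -0.11; for the genotypes with water these were -0.051 and -0.030. After dexamethasone BSMT1 was 0.72 and GRX480 0.26, and in the interaction 0.75 and 0.45. Between CPR5-C water and WT dexamethasone SAG101 was 0.080, AT5G52810 0.0027, BSMT1 0.083 and GRX480 0.086. BSMT1 was called for the induction, the genotypes after dexamethasone and the interaction; GRX480 in none of the 6. UGT74F1 turned to -0.037 in WT and 0.50 in the interaction, and UGT76B1 to -0.10 in WT; both gained calls for the induction and the interaction, as given in the report. The shifts of the values follow from adding, within each comparison, the same amount to the change of every probe set. The calls depend on the SE too, which the scaling also changed. For the induction it went from 0.31 to 0.21 for UGT76B1 and from 0.064 to 0.16 for UGT74F1. Array weights gave SAG101 0.088 in WT and BSMT1 0.046 between CPR5-C water and WT dexamethasone.

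With an array left out, ranges that crossed 0 or the threshold were, for SAG101, -0.14 to 0.071 (WT dexamethasone), -0.098 to 0.020 (genotypes with water) and -0.12 to 0.094 (CPR5-C water against WT dexamethasone), and for AT5G52810 -0.071 to 0.058 and -0.24 to 0.0079 in the last 2. BSMT1 ran from 0.11 to 0.34 (induction), -0.063 to 0.12 (WT), -0.047 to 0.098 (water), 0.082 to 0.32 (genotypes after dexamethasone) and -0.11 to 0.096 (the last pair). GRX480 ran from -0.20 to 0.031 (WT), -0.39 to -0.16 (genotypes after dexamethasone), -0.27 to 0.067 (interaction) and -0.22 to 0.095 (the last pair). The arrays that gave BSMT1 and GRX480 a call are named in the report.

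In the order of comparisons induction, WT dexamethasone, genotypes with water, genotypes after dexamethasone, interaction and CPR5-C water against WT dexamethasone, 10895, 2065, 1610, 10786, 8755 and 344 probe sets were called. Spike scaling gave 15212, 987, 462, 18423, 15511 and 225, of which 87.8%, 13.3%, 34.0%, 91.7%, 93.3% and 92.0% were higher in place of 48.7%, 55.9%, 60.1%, 49.2%, 47.1% and 73.5%. Single-gene probe sets alone, fewer by construction, gave 5798, 1012, 708, 5744, 4555 and 147. A change of at least 1 as well left 2441, 205, 90, 2356, 2363 and 37. At adjusted p under 0.01 the counts for WT dexamethasone, genotypes with water and the last pair were 1152, 783 and 168. Array weights gave 721 for the last pair. With an array left out the genotypes with water ran from 900 (without CPR5-C water replicate 3; 922 without replicate 2, 1019 without WT water replicate 3) to 1665, and the last pair from 209 (also without CPR5-C water replicate 3) to 407; the cause was not tested.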
